A study of Mus musculus with 8 samples.

Results

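Potassium channel genes were described in RNA sequencing of mouse orbital frontal cortex, a prefrontal region that serves flexible reward-guided behaviour. The members were all genes of the deposited gene table whose symbol starts with Kcn followed by a letter, with their rows in the transcript table. That gave 72 of 13130 genes and 121 of 24526 transcripts, in 20 subfamilies. The control group was 4 libraries from C57BL/6 mice, aged 12 weeks, given a scrambled short hairpin RNA (sh-scramble). The knockdown group was 4 libraries from C57BL/6 mice of the same age given sh-circHomer1/sh-Homer1b, hairpins named for the circular RNA and the long linear isoform of Homer1, a postsynaptic scaffold gene. The labels used here do not give the vector, the promoter or the cells that received a hairpin. Whether the libraries derive from different animals is not stated either, so p-values refer to the spread between libraries, which may be technical.

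Potassium channels let potassium leave the cell, which ends action potentials, sets the resting potential and limits repetitive firing. Voltage-gated members (the Kv families Kcna, Kcnb, Kcnc, Kcnd, Kcnh and Kcnq) open on depolarization, and the Kcnf, Kcng, Kcns and Kcnv subunits form no channel alone but modify Kcnb channels. Calcium-activated and sodium-activated channels (Kcnma, Kcnn, Kcnt), the sperm channel Kcnu, inward rectifiers (Kcnj) and tandem-pore leak channels (Kcnk) complete the pore-forming set. Kcnab, Kcnip, Kcnmb and Kcne genes encode auxiliary subunits. In cortex these genes divide labour among cell types, with Kcnc channels in fast-spiking interneurons, Kcnj10 in astrocytes and Kcnd channels in the dendrites of pyramidal neurons.

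Levels are in FPKM, which divides fragments by transcript length and library size, so levels of different genes can be set side by side per length. All 72 genes were listed above 0 in every library, and together they held 0.366% to 0.425% of the summed FPKM of a library. Read depth is unknown, because FPKM values carry no counts. Homer1, the targeted gene, read 22.5 ± 3.13 FPKM in the controls and 17.8 ± 1.49 FPKM in knockdown libraries (SD, n = 4 each), with overlapping groups and a limma adjusted p of 0.273. This value is for the whole gene and does not measure the circular RNA or the long linear isoform alone. The libraries also differed in tissue markers. The score of 20 striatal projection neuron markers, all measured and none at 0, is the mean log2 deviation of the markers from their means over the 8 libraries. It was 1.03, 0.40, 0.87 and -0.67 in control replicates 1 to 4 and -0.77, 0.03, 0.31 and -1.21 in knockdown replicates 1 to 4. Their summed level ran from 315 to 1039 FPKM in the controls and from 240 to 629 FPKM in knockdown libraries. Knockdown replicate 4 stood apart. Its score of the olfactory bulb markers averaging at least 0.5 FPKM was 1.73, against -0.44 to -0.12 in the other 7 libraries. Of the 6 measured markers, Eomes was at 0 in a control library. Eomes averaged 0.315 FPKM and is not in the score. The myelin score of knockdown replicate 4 was -0.61, the lowest of the 8. That library also held the lowest or the highest value of 37 of the 72 potassium channel genes. This was more than any other library, the next being control replicate 1 with 22. The share over all genes is not given here, so this count is not a result about potassium channels. The score of 14 cortical glutamatergic neuron markers ran from -0.13 to 0.12 over the 8 libraries, but its single markers differed in spread. Slc17a7 read 102 to 153 FPKM, Tle4 8.78 to 23.5 FPKM, Rasgrf2 5.87 to 19.3 FPKM and Cux2 2.14 to 10.6 FPKM. Rasgrf2 and Cux2 were highest in knockdown replicate 4. In bulk tissue, fewer cells of a type and less RNA per cell cannot be told apart.

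The sequences that carry the largest isoform difference among the members are those of Kcnip3, which encodes a calcium-binding protein known both as a subunit of Kcnd channels and as the transcriptional repressor DREAM. The gene lies on chromosome 2 from 127456498 to 127522094 on the minus strand (GRCm38). Its 2 listed transcripts, Kcnip3-201 and Kcnip3-203, have 9 exons each and differ by 4 bases at the start of exon 3, chr2:127465975-127465978. The annotated open reading frames hold 284 codons in Kcnip3-201 and 256 codons in Kcnip3-203. The junction of exons 2 and 3 is shown on the transcript strand, from the GENCODE M21 transcripts, with the extra bases in capitals.
Kcnip3-201: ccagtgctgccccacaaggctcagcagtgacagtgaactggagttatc
Kcnip3-203: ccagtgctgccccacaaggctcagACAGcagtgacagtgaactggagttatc

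Only reads over these bases can tell the transcripts apart, and how many such reads stand behind the FPKM values is unknown and may be few. Kcnip3-201 read 11.5, 45.2, 45.0 and 47.8 FPKM in the 4 controls and 10.7, 1.43, 12.4 and 9.58 FPKM in the 4 knockdown libraries. Kcnip3-203 read 39.9, 4.07, 4.78 and 5.09 FPKM in the controls and 45.0, 55.9, 40.5 and 41.0 FPKM in knockdown libraries. Control replicates 2 to 4 were mostly Kcnip3-201, while control replicate 1 and all 4 knockdown libraries were mostly Kcnip3-203. As a share of both transcripts, Kcnip3-203 made up 77.6% in control replicate 1, 8.26% to 9.61% in the other controls and 76.6% to 97.5% in the knockdown libraries.

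The groups of Kcnip3-203 did not overlap, by the small margin between 39.9 FPKM in control replicate 1 and 40.5 FPKM in knockdown replicate 3. Its log2 difference, knockdown minus control on log2(FPKM + 1), was 2.32 ± 0.64 (SE), with a limma adjusted p of 0.565 over all transcripts. For Kcnip3-201 the log2 difference was -2.08 ± 0.66 with the same adjusted p of 0.565. The log2 ratio of Kcnip3-203 to Kcnip3-201 differed by 4.40 ± 1.23, also short of the threshold (limma adjusted p = 0.867 over all ratios). The call of Kcnip3-203 turns on control replicate 1. Without it, the log2 difference of Kcnip3-203 was 3.04 and passed the threshold with a limma adjusted p of 0.000665, against 0.000665 to 0.758 over its 13 alternatives. Neither Kcnip3-201 nor the ratio passed without that library, with limma adjusted p values of 0.795 and 0.118; over their alternatives these ran from 0.470 to 0.795 and from 0.118 to 0.949. The gene value of Kcnip3 was nearly level, at 39.2 ± 1.28 FPKM in the controls and 41.8 ± 2.33 FPKM in knockdown libraries (SD, n = 4), a log2 difference of 0.09 ± 0.05 (limma adjusted p = 0.456).

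**Figure D1:**
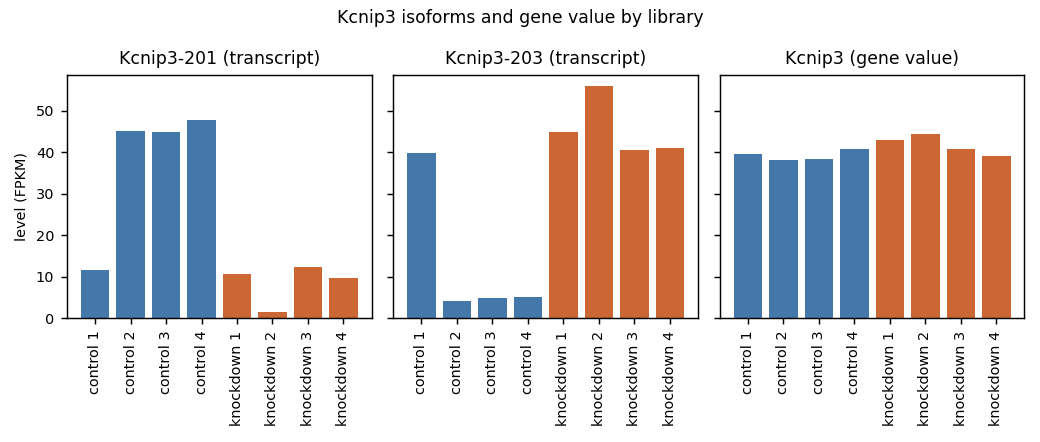
Levels of Kcnip3-201, Kcnip3-203 and the Kcnip3 gene value (FPKM, bars) in each of the 4 control (blue) and 4 knockdown (orange) libraries. Control replicate 1 holds 39.9 FPKM of Kcnip3-203, close to the 40.5 to 55.9 FPKM of the knockdown libraries, while the gene value stays between 38.1 and 44.3 FPKM in all 8.

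Kcnh1, which encodes a voltage-gated channel of the ether-a-go-go family, was another gene in which the ratio of its 2 listed transcripts had an unadjusted limma p under 0.05. It lies on chromosome 1 from 192190774 to 192510159 on the plus strand (GRCm38). Kcnh1-201 carries 81 bases, or 27 codons, at the end of exon 6, chr1:192277091-192277171, which Kcnh1-202 lacks. These bases are in capitals below, with 15 bases on either side, from the GENCODE M21 transcripts.
Kcnh1-201: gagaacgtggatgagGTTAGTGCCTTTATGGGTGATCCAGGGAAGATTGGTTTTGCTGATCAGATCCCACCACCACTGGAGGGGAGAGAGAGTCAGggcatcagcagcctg
Kcnh1-202: gagaacgtggatgagggcatcagcagcctg

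Kcnh1-201, the longer form, read 7.15, 6.24, 6.37 and 7.39 FPKM in the controls and 6.55, 5.22, 4.77 and 5.57 FPKM in knockdown libraries. Kcnh1-202, the shorter form, read 4.87, 5.77, 5.77 and 4.34 FPKM in the controls and 7.20, 6.27, 4.90 and 6.08 FPKM in knockdown libraries. The longer form therefore made up 56.7% ± 5.40 of both in controls and 47.5% ± 1.59 in the knockdown group (SD, n = 4), and its log2 ratio to the shorter form differed by -0.46 ± 0.18 (limma adjusted p = 0.89). The gene value of Kcnh1 varied least among controls of all members averaging 1 FPKM or more, at 11.8 ± 0.155 FPKM and a coefficient of variation of 1.32%. In the knockdown group it read 11.4 ± 1.64 FPKM, a log2 difference of -0.05 ± 0.09 (limma adjusted p = 0.807).

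The members' levels spanned about 2 orders of magnitude. Averaged over the 8 libraries, 31 genes lay at 10 FPKM or more, 35 between 1 and 10 FPKM and 6 under 1 FPKM, with a median of 6.10 FPKM. The highest was Kcnab2, the beta subunit that binds Kcna channels in the cytoplasm, at 65.5 FPKM. It was followed by the inward rectifier Kcnj4 at 51.2 FPKM, the leak channel Kcnk1 at 41.4 FPKM and Kcnip3 at 40.5 FPKM. Next came Kcnj9, a subunit of G protein-gated channels, at 37.5 FPKM, the astrocytic rectifier Kcnj10 at 32.4 FPKM, the ether-a-go-go-like channel Kcnh3 at 32 FPKM and the silent subunit Kcnf1 at 31.0 FPKM. Ranges of neighbours in this order overlapped over the libraries: Kcnk1 and Kcnip3 ran from 35.3 to 44.5 FPKM and from 38.1 to 44.3 FPKM. The lowest 3 were Kcnj14 at 0.501 FPKM, Kcng3 at 0.515 FPKM and Kcnh6 at 0.563 FPKM.

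**Figure D2:**
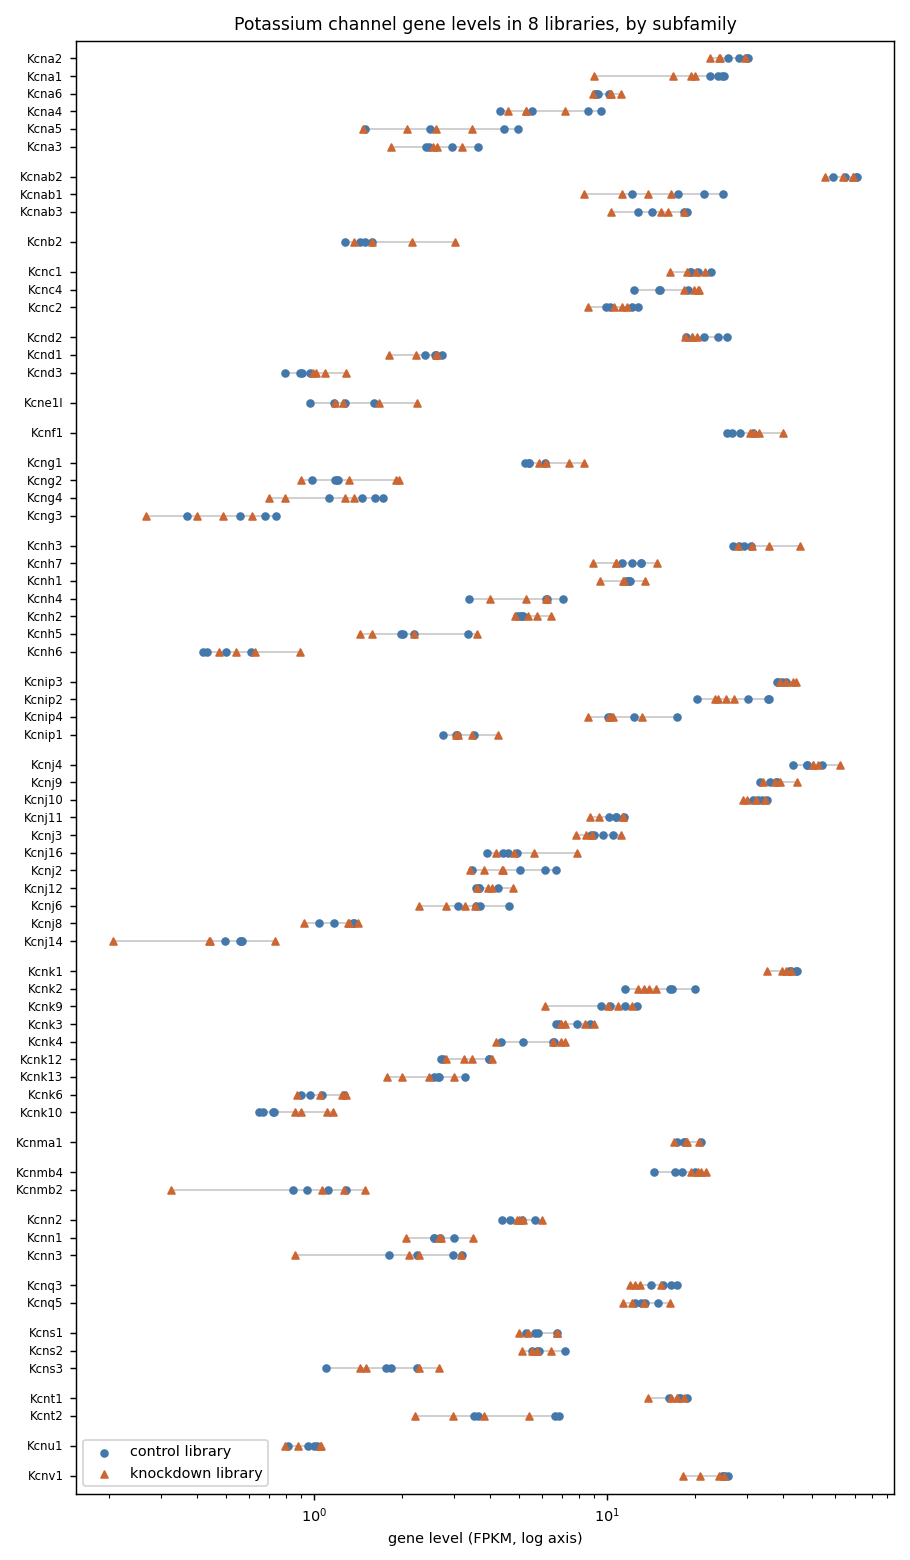
Level of each of 68 potassium channel genes (FPKM, log axis) in 4 control (circles) and 4 knockdown (triangles) libraries, grouped by subfamily, with a grey line over the range of the 8. Kcnab2 is the highest at a mean of 65.5 FPKM and Kcnj14 the lowest at 0.501 FPKM, and most genes keep their level within a narrow range.

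No potassium channel gene passed the adjusted threshold (limma, Benjamini-Hochberg adjusted p under 0.05 over all 13004 tested genes), and neither did any other gene. The smallest adjusted p among the members was 0.266. At an unadjusted limma p under 0.05 there were 9 of 72 members, or 12.5%, against 14.2% of all tested genes. Of the 9, 6 read higher in the knockdown group (Kcnc4, Kcnd3, Kcnf1, Kcng1, Kcnk10 and Kcnmb4), where the share of all genes was 9.1%. The other 3 read lower (Kcna1, Kcng4 and Kcnq3), where the share of all genes was 5.07%. The share of members is close to that of all genes, so the count of 9 is not a result about potassium channels. Adjusted for the striatal score, 1 member (Kcnk10) read higher at an unadjusted limma p under 0.05, in place of 6. The share of all genes in that fit is not given here, so this change in count is not a result about potassium channels. Groups did not overlap in 3 members, Kcna1 below and Kcnd3 and Kcnk10 above the controls, which is 4.17% against 9.15% of all genes. The median log2 difference was -0.05 over the members and 0.01 over all tested genes, and 37.5% of members against 54.9% of all genes had a positive difference.

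**Figure D3:**
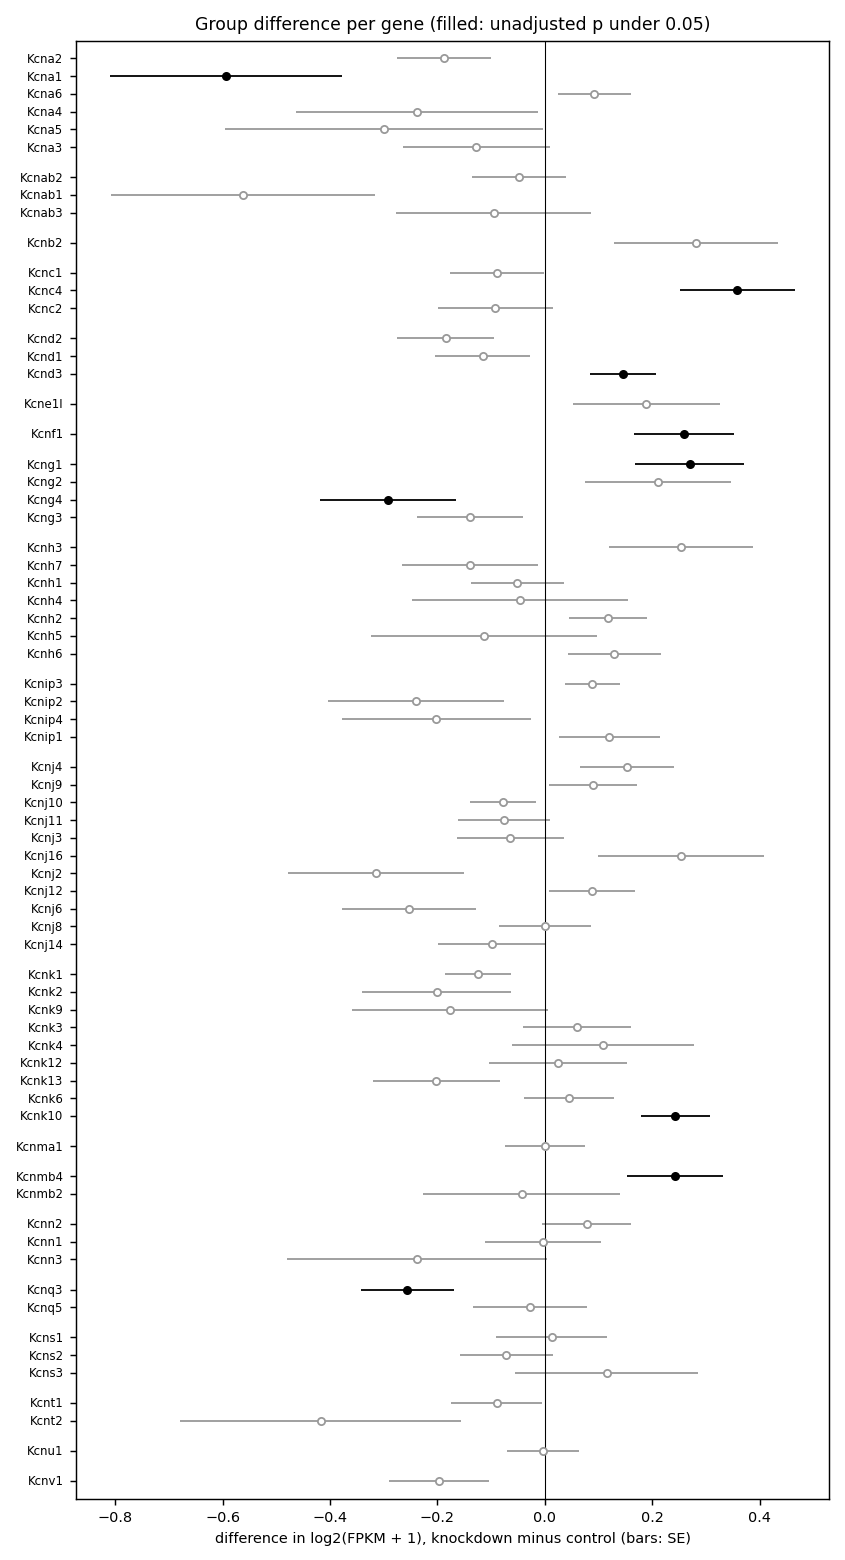
Difference in log2(FPKM + 1), knockdown minus control, with its SE for each of 68 genes, grouped by subfamily; filled points have an unadjusted limma p under 0.05. Differences run from -0.59 for Kcna1 to 0.36 for Kcnc4, 41 of 68 lie below 0, and none passed the adjusted threshold.

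Among the Kcna genes, whose channels sit along axons and at the axon initial segment, 5 of 6 differences were negative and 1 had an unadjusted limma p under 0.05. That one was Kcna1 (chromosome 6, 126640397 to 126646384, minus strand, GRCm38), which held the largest negative difference of all members. It read 22.5, 24, 25.1 and 24.8 FPKM in the controls and 16.8, 20.0, 19.4 and 9.04 FPKM in knockdown libraries. Every knockdown library lay below every control, and knockdown replicate 4 lay far below the other 3. The means were 24.1 ± 1.14 and 16.3 ± 5.03 FPKM (SD, n = 4), a log2 difference of -0.59 ± 0.22 (limma adjusted p = 0.303). Without knockdown replicate 4 the log2 difference was -0.35. It was -0.38 when adjusted for the striatal score and -0.42 with the myelin score.

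Both listed transcripts of Kcna1 have the same 495 codons. Kcna1-201 held 88.0% ± 5.46 of their summed level in controls and 89.9% ± 7.17 in the knockdown group (SD, n = 4), so the makeup of the gene was nearly the same in both. Kcna2, a partner of Kcna1 in axonal channels and the highest Kcna gene, read 28.6 ± 1.97 against 25.1 ± 3.09 FPKM, a log2 difference of -0.19 ± 0.09 (limma adjusted p = 0.369). Kcna5 varied most among controls of all members averaging 1 FPKM or more, at 4.95, 2.48, 4.44 and 1.49 FPKM, a coefficient of variation of 48.8%. In the knockdown group it read 1.47, 2.61, 3.45 and 2.08 FPKM, with a log2 difference of -0.30 ± 0.30 (limma adjusted p = 0.658) that was -0.54 without control replicate 4, -0.12 without control replicate 1, -0.163 without control replicate 3 and -0.156 without knockdown replicate 1. The summed level of the 6 Kcna genes was 75.4 ± 1.43 FPKM in the controls and 62.1 ± 7.25 FPKM in knockdown libraries (SD, n = 4), lowest in knockdown replicate 4 at 51.3 FPKM.

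The Kcnab genes encode cytoplasmic beta subunits of Kcna channels, and Kcnab1 confers fast inactivation on them. Kcnab1 (chromosome 3, 65109384 to 65378223, plus strand, GRCm38) read 24.8, 17.4, 21.5 and 12.2 FPKM in the controls and 11.2, 13.8, 16.6 and 8.36 FPKM in knockdown libraries. The groups overlapped, and the libraries with the highest striatal scores were the highest in each group. The log2 difference was -0.56 ± 0.25 (limma adjusted p = 0.353) and was -0.12 when adjusted for the striatal score. Kcnab2 read 66.6 ± 5.76 and 64.5 ± 6.44 FPKM, a log2 difference of -0.05 ± 0.09 (limma adjusted p = 0.818). Kcnab3 ran from 10.3 to 18.8 FPKM over the 8 libraries.

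Kcnb2, a delayed rectifier of neuronal somata, read 1.45 ± 0.125 and 2.04 ± 0.744 FPKM. Its log2 difference of 0.28 ± 0.15 (limma adjusted p = 0.429) became 0.13 without knockdown replicate 4, which held 3.03 FPKM.

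Silent subunits alter the gating of Kcnb channels. Kcnf1 (chromosome 12, 17172100 to 17176888, minus strand, GRCm38) read 25.7, 28.4, 26.8 and 31.6 FPKM in the controls and 31.8, 30.8, 33.1 and 40.0 FPKM in knockdown libraries. Kcng1 (chromosome 2, 168260117 to 168281736, minus strand) read 5.43, 6.15, 5.24 and 5.44 FPKM in the controls and 6.20, 5.86, 7.41 and 8.38 FPKM in knockdown libraries. For each gene the groups overlapped through 1 control library, and knockdown replicate 4 was the highest library for both genes. The log2 differences were 0.26 ± 0.09 for Kcnf1 (limma adjusted p = 0.298) and 0.27 ± 0.10 for Kcng1 (limma adjusted p = 0.307). Adjusted for the striatal score, that of Kcnf1 was 0.13 and that of Kcng1 was 0.22.

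Kcng4 (chromosome 8, 119623854 to 119635680, minus strand) went the other way, with 1.13, 1.72, 1.46 and 1.61 FPKM in the controls and 1.37, 1.28, 0.799 and 0.704 FPKM in knockdown libraries. The groups overlapped, and the log2 difference was -0.29 ± 0.13 (limma adjusted p = 0.349). Kcng4 falls outside the rule by which genes were chosen for group differences and was added after its values were seen, as were Kcnj2 and Kcnn1. Kcnv1 was among the steadier controls, at 25.2 ± 0.486 FPKM, and read 22 ± 3.21 FPKM in knockdown libraries, a log2 difference of -0.20 ± 0.09 (limma adjusted p = 0.379) that was -0.11 without knockdown replicate 3. Kcns1 read 5.89 ± 0.623 and 5.97 ± 0.919 FPKM, and Kcns2 read 6.09 ± 0.734 and 5.73 ± 0.552 FPKM, with limma adjusted p values of 0.966 and 0.716. Kcng2, Kcng3 and Kcns3 lay between 0.267 and 2.67 FPKM in every library.

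Kcnc genes encode channels that repolarize quickly and allow fast spiking. Kcnc4 (chromosome 3, 107438303 to 107459552, minus strand, GRCm38) held the largest positive difference of all members. It read 12.4, 15.2, 15 and 18.9 FPKM in the controls and 20.6, 20.4, 18.3 and 19.8 FPKM in knockdown libraries. Control replicate 4, which has the lowest striatal score of the controls, lay within the knockdown range, and the other 3 controls lay below it. The log2 difference was 0.36 ± 0.11 (limma adjusted p = 0.266). Adjusted for the striatal score it was 0.21. Kcnc1, the highest of the subfamily, read 20.4 ± 1.61 and 19.2 ± 2.22 FPKM, a log2 difference of -0.09 ± 0.09 (limma adjusted p = 0.656). Without knockdown replicate 3 it was -0.0187, without control replicate 2 it was -0.04, and without knockdown replicate 1 it was -0.15, as it was when adjusted for the striatal score. Kcnc2 ran from 8.60 to 12.8 FPKM. Parvalbumin interneuron markers, 9 of 10 measured, summed to 179 to 219 FPKM in the controls and 161 to 195 FPKM in knockdown libraries. The sum includes Gad1, Gad2, Slc32a1 and Tac1, the last also in the striatal list, so it does not measure parvalbumin cells alone. Pvalb itself read 41.2, 45.8, 35.3 and 45.8 FPKM in the controls and 41.4, 46.6, 26.1 and 28.6 FPKM in knockdown libraries. The part of these markers in the Kcnc values was not tested.

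Kcnd genes encode the A-type channels of dendrites. Kcnd3 (chromosome 3, 105452330 to 105674002, plus strand, GRCm38) was a minor member, at 0.797, 0.898, 0.911 and 0.972 FPKM in the controls and 1.02, 0.993, 1.29 and 1.09 FPKM in knockdown libraries. The groups did not overlap, with 0.972 against 0.993 FPKM at their nearest, and the log2 difference was 0.15 ± 0.06 (limma adjusted p = 0.347). Its transcripts did not share that separation. Kcnd3-201 differed by 0.29 ± 0.22 and Kcnd3-202 by 0.08 ± 0.09 on the log2 scale, with overlapping groups in both (limma adjusted p = 0.733 and 0.805). Without knockdown replicate 3 the former was 0.09, and the latter was 0.0382 without control replicate 1 and 0.12 without control replicate 4. Kcnd2, the main member, read 22.4 ± 3.05 and 19.5 ± 0.758 FPKM, a log2 difference of -0.18 ± 0.09 (limma adjusted p = 0.389). This was -0.12 without control replicate 1 and -0.0633 when adjusted for the striatal score. Of the other Kcnip genes, whose products bind Kcnd channels and raise their surface level, Kcnip2 ran from 20.2 to 35.6 FPKM, Kcnip4 from 8.62 to 17.3 FPKM and Kcnip1 from 2.76 to 4.24 FPKM.

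In the Kcnh subfamily of 7 genes, no member had an unadjusted limma p under 0.05. Kcnh3, the highest, read 28.2, 30.9, 29.3 and 27.0 FPKM in the controls and 35.6, 31.2, 27.9 and 45.7 FPKM in knockdown libraries. Its log2 difference of 0.25 ± 0.13 (limma adjusted p = 0.416) was 0.12 without knockdown replicate 4, the highest of the 8 libraries.

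Kcnq genes encode the subunits of the M current, a slow brake on firing that muscarinic receptors close. Kcnq3 had an unadjusted limma p under 0.05. Kcnq3 (chromosome 15, 65986387 to 66286642, minus strand, GRCm38) read 17.4, 16.5, 15.5 and 14.1 FPKM in the controls and 15.3, 12.9, 12.5 and 12.0 FPKM in knockdown libraries. The groups overlapped through knockdown replicate 1 and control replicate 4. The log2 difference was -0.26 ± 0.09 (limma adjusted p = 0.288) and was -0.21 when adjusted for the striatal score. Kcnq5 averaged 13.4 FPKM over the 8 libraries.

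**Figure D4:**
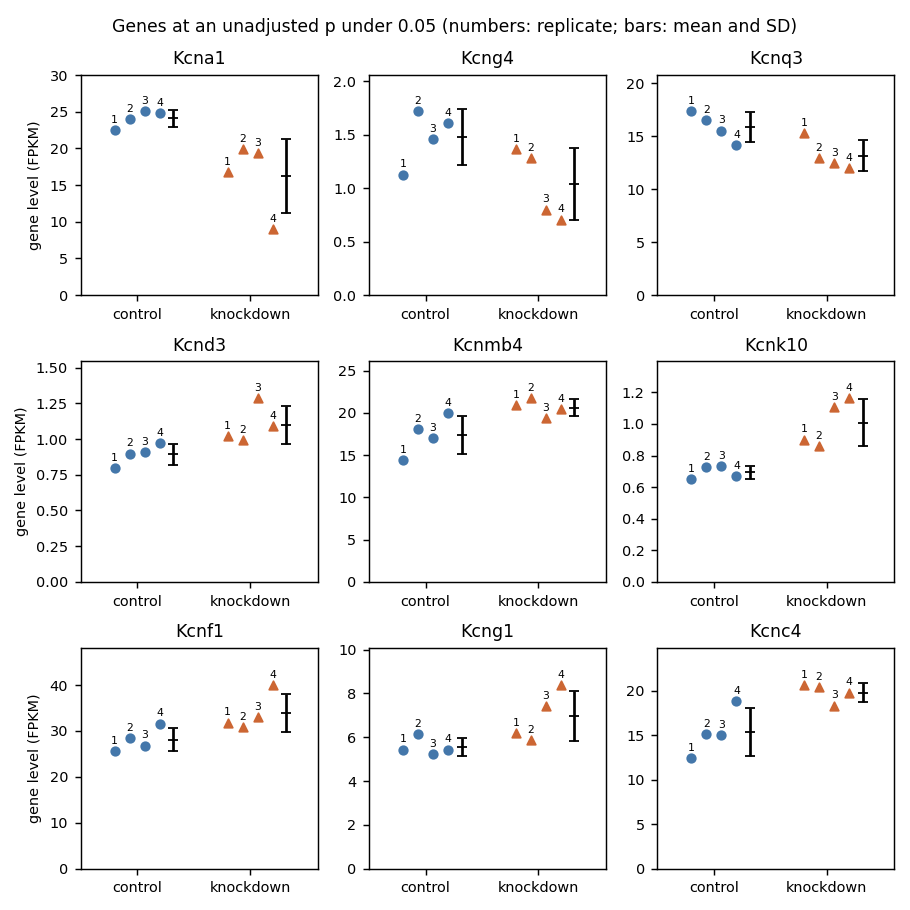
Level (FPKM) of the 9 genes with an unadjusted limma p under 0.05 in control (circles) and knockdown (triangles) libraries, numbered by replicate, with the mean and SD of each group. Only Kcna1, Kcnd3 and Kcnk10 show no overlap between groups, and knockdown replicate 4 is the lowest for Kcna1 (9.04 FPKM) and the highest for Kcnf1 (40.0 FPKM) and Kcng1 (8.38 FPKM).

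Kcnma1, the pore of the large-conductance calcium-activated channel, had nearly equal means, at 18.7 ± 1.53 and 18.7 ± 1.55 FPKM, with a log2 difference of -0.00 ± 0.07 (limma adjusted p = 0.999). Its neuronal auxiliary subunit Kcnmb4 (chromosome 10, 116417861 to 116473878, minus strand, GRCm38) read 14.5, 18.0, 17.1 and 20.0 FPKM in the controls and 20.9, 21.8, 19.4 and 20.5 FPKM in knockdown libraries. Control replicate 4 lay within the knockdown range and the other 3 controls lay below it, the same arrangement as for Kcnc4. The log2 difference of Kcnmb4 was 0.24 ± 0.09 (limma adjusted p = 0.302) and was 0.14 when adjusted for the striatal score. Kcnmb2 ran from 0.325 to 1.5 FPKM.

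The small-conductance calcium-activated channels, which shape the afterhyperpolarization that follows spikes, held a summed 10.2 ± 0.225 FPKM in the controls and 10.1 ± 0.51 FPKM in knockdown libraries (SD, n = 4). Kcnn2 read 4.96 ± 0.563 and 5.29 ± 0.492 FPKM (limma adjusted p = 0.681). Kcnn3 read 3.21, 2.24, 2.99 and 1.80 FPKM in the controls and 2.11, 2.28, 3.16 and 0.859 FPKM in knockdown libraries, a log2 difference of -0.24 ± 0.24 (limma adjusted p = 0.667) that was -0.01 without knockdown replicate 4. One of the 4 listed transcripts of Kcnn1, Kcnn1-207, was listed at 0 in knockdown replicates 1 and 2 and read 2.07 and 2.13 FPKM in the other 2, against 2.75, 2.47, 2.43 and 3.20 FPKM in controls. The gene value of Kcnn1 was 2.72 ± 0.208 and 2.73 ± 0.581 FPKM. The sodium-activated channel Kcnt1 read 17.6 ± 1.05 and 16.5 ± 1.92 FPKM (limma adjusted p = 0.637). Its relative Kcnt2 read 3.62, 6.65, 3.53 and 6.84 FPKM in the controls and 3.80, 2.99, 5.40 and 2.21 FPKM in knockdown libraries. The spread of Kcnt2 within the controls was as wide as the difference, -0.42 ± 0.26 on the log2 scale (limma adjusted p = 0.488), which was -0.26 without knockdown replicate 4. Kcnu1, whose product is known as a sperm channel, was near 1 FPKM in both groups, at 0.95 ± 0.0946 and 0.946 ± 0.129 FPKM (limma adjusted p = 0.986).

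Inward rectifiers were the largest subfamily, with 11 genes and none at an unadjusted limma p under 0.05. Kcnj4, the highest, read 48.3, 48.1, 54.1 and 43.0 FPKM in the controls and 50.6, 52.5, 50.5 and 62.3 FPKM in knockdown libraries, a log2 difference of 0.15 ± 0.09 (limma adjusted p = 0.45). It was 0.0841 without knockdown replicate 4 and 0.0997 without control replicate 4. Kcnj6, a subunit of the G protein-gated channels that GABA-B receptors open, read 3.75 ± 0.636 and 2.99 ± 0.559 FPKM (SD, n = 4), a log2 difference of -0.25 ± 0.12 (limma adjusted p = 0.391) that was -0.16 without knockdown replicate 4 and -0.169 without control replicate 4. Its partners Kcnj9 and Kcnj3 ran from 33.3 to 44.7 FPKM and from 7.86 to 11.2 FPKM. Kcnj10 and its partner Kcnj16, the astrocytic pair, ran from 29.2 to 35.1 FPKM and from 3.88 to 7.92 FPKM, with the top value of Kcnj16 in knockdown replicate 4. In that library Kcnj10 read 34.7 FPKM, below its 35.1 FPKM in control replicate 1. The summed level of 14 astrocyte markers was the highest of the 8 there, at 560 FPKM, but not every marker was. Slc1a2 read 166 FPKM there and 184 FPKM in knockdown replicate 1. The part of these markers in the values of either gene was not tested. The pore genes of ATP-sensitive channels, Kcnj11 and Kcnj8, ran from 8.74 to 11.5 FPKM and from 0.925 to 1.41 FPKM.

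Kcnk genes encode the leak channels that set the resting potential. Kcnk10 (chromosome 12, 98429437 to 98578310, minus strand, GRCm38), a mechanosensitive and lipid-sensitive member, had the smallest p of all members at a low level. It read 0.649, 0.725, 0.733 and 0.669 FPKM in the controls and 0.901, 0.862, 1.11 and 1.16 FPKM in knockdown libraries, and the groups did not overlap. The means were 0.694 ± 0.0415 and 1.01 ± 0.149 FPKM (SD, n = 4), a log2 difference of 0.24 ± 0.06 that did not pass the threshold (limma adjusted p = 0.266). The difference was 0.23 when adjusted for the striatal score and 0.21 without knockdown replicate 4. On the log2(FPKM + 1) scale the differences of such low genes are understated. Its listed transcript, Kcnk10-202, differed by 0.25 ± 0.09 (limma adjusted p = 0.587). Kcnk2, the close relative of Kcnk10, was far higher and ran from 11.5 to 20.0 FPKM with overlapping groups. Kcnk1, the highest, read 43.1 ± 1.33 and 39.6 ± 3.09 FPKM, a log2 difference of -0.12 ± 0.06 (limma adjusted p = 0.389) that was -0.0713 without knockdown replicate 3. Kcnk13, a leak channel of microglia, ran from 1.78 to 3.27 FPKM. Kcne1l, the single Kcne gene listed, read 1.26 ± 0.264 and 1.59 ± 0.49 FPKM, and its log2 difference of 0.19 ± 0.14 (limma adjusted p = 0.543) was 0.07 without knockdown replicate 4.

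Among transcripts, 116 of the 121 were tested and none passed the adjusted threshold, while 6 of all 23415 tested transcripts did. At an unadjusted limma p under 0.05 there were 12 of 116, or 10.3%, against 7.96% of all transcripts. Of these, 6 read higher and 6 lower, where the shares of all transcripts were 4.2% and 3.76%. Groups did not overlap in 6 of the 116, or 5.17%, against 5.7% of all transcripts. The makeup of genes by isoform, tested as the log2 ratio of a transcript to the other listed transcripts of its gene, had an unadjusted limma p under 0.05 in 5 of 74 ratios, or 6.76%, against 5.45% of all ratios. Both transcripts of Kcnip3 and both of Kcnh1 were among these 5, and in each pair the 2 ratios mirror each other, so they stand for 1 difference a gene. The fifth, named after its value was seen, was Kcnip1-202. It held 4.84% ± 0.125 of the listed level of Kcnip1 in controls and 9.63% ± 3.03 in the knockdown group (SD, n = 4, limma adjusted p = 0.89). Its level was low, at 0.457 to 0.557 FPKM in controls and 0.612 to 1.82 FPKM in knockdown libraries, the highest being knockdown replicate 4. None of the 74 passed the adjusted threshold. The next by p among those averaging 1 FPKM or more was Kcng1-202, which held 90.4% ± 1.62 of the listed level of Kcng1 in controls and 93.2% ± 1.65 in the knockdown group (SD, n = 4; limma adjusted p = 0.89). Kcnc4, Kcnf1 and Kcnq3 have 1 listed transcript each, with differences of 0.36, 0.26 and -0.26. For Kcnc4 and Kcnf1 the transcript values are the gene values themselves, so the likeness to the genes was fixed in advance. That of Kcnq3 is not a separate measurement either.

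The members past an adjusted threshold were found in a fit on striatal markers and not in the comparison of groups. A slope on the striatal score was fitted together with the group, so that it measures how a gene moved with the score within groups. This fit was added after the data were seen. Its adjusted p was under 0.05 in 97 of 13004 genes, or 0.746%, of which 19 were among the 20 marker genes that make up the score. Among the potassium channel genes 2 passed, Kcnab1 and Kcnj2, neither of which is in the marker list. Kcnab1 changed by 0.54 ± 0.04 log2 units per unit of score (limma adjusted p = 0.00106). Leaving out any 1 library kept its slope between 0.52 and 0.57 and past the threshold.

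Kcnj2, an inward rectifier known to be expressed by striatal projection neurons, read 6.69, 5.06, 6.13 and 3.47 FPKM in the controls and 3.80, 4.39, 4.43 and 3.41 FPKM in knockdown libraries. Its slope was 0.34 ± 0.06 (limma adjusted p = 0.0477), and without control replicate 1, 2, 3 or 4 or knockdown replicate 1, 2 or 3 it no longer passed, at slopes of 0.25 to 0.38 and adjusted p values of 0.065 to 0.165. The next in order were Kcna5 at 0.59 ± 0.12 and Kcnn3 at 0.47 ± 0.10, neither past the threshold (limma adjusted p = 0.101 and 0.116). At an unadjusted limma p under 0.05 there were 17 of the 72 members, or 23.6%, against 12.8% of all genes. The slope was positive in 8 and negative in 9 of them, where the shares of all genes were 7.1% and 5.74%.

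**Figure D5:**
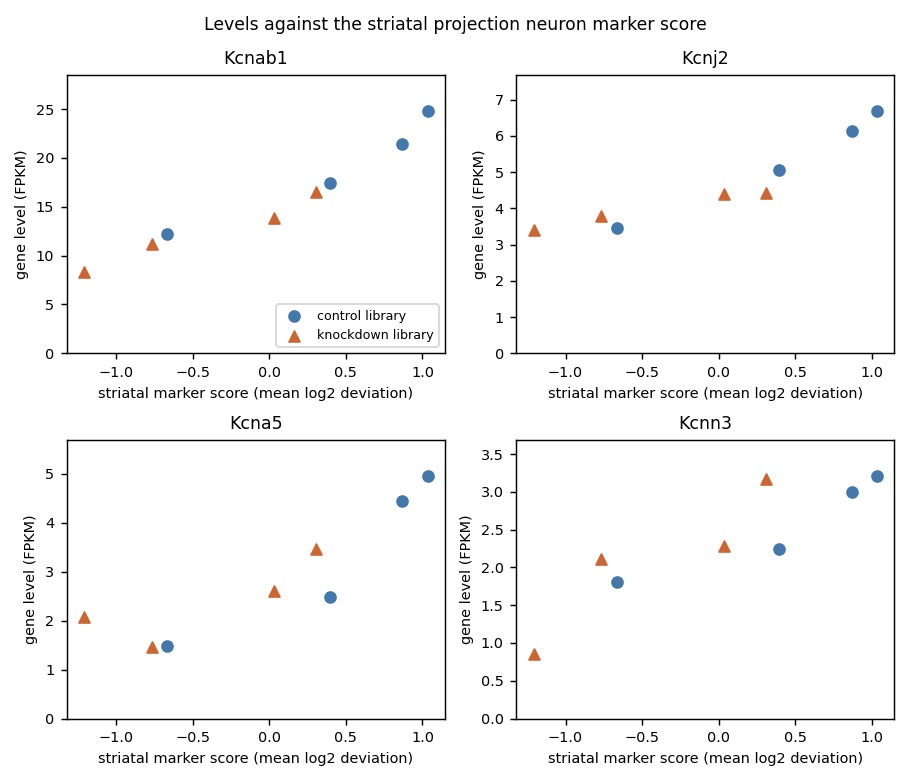
Gene level (FPKM) of Kcnab1, Kcnj2, Kcna5 and Kcnn3 against the striatal projection neuron marker score (mean log2 deviation of 20 markers) in 4 control (circles) and 4 knockdown (triangles) libraries. Kcnab1 climbs from 8.36 FPKM at a score of -1.21 to 24.8 FPKM at 1.03, and libraries of both groups lie along the same course.

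Partners of potassium channels were counted from 10 lists of 54 genes, of which 51 were tested. None passed the adjusted threshold. At an unadjusted limma p under 0.05, 2 read higher and 6 lower, against the 9.1% and 5.07% of all genes given above, and the median log2 difference of the 51 was -0.05. The smallest p among those lower was that of Rgs7bp, which anchors the regulators that speed the closing of G protein-gated channels. It read 78.2, 72.4, 68.3 and 63.3 FPKM in the controls and 59.4, 57.5, 52.4 and 52.0 FPKM in knockdown libraries, without overlap, a log2 difference of -0.34 ± 0.07 (limma adjusted p = 0.266). The smallest among those higher was Hcn3, a hyperpolarization-activated cation channel, at 2.70 ± 0.317 and 3.72 ± 1.01 FPKM (limma adjusted p = 0.336). The others, named after their values were seen, were Kctd16 among regulators of G protein-gated channels, Lgi1 and Epb41l3 among axonal partners of Kcna channels, Ank3 and Csnk2a1 among partners of Kcnn and Kcnq channels, all lower, and Amigo2 of the Kcnb partner list, which was higher. Ank3, the ankyrin that anchors Kcnq channels at the axon initial segment, read 10.1 ± 0.933 and 7.65 ± 1.04 FPKM, a log2 difference of -0.37 ± 0.10 (limma adjusted p = 0.266). The lists of Kcnd partners, calcium-activated channel auxiliaries, sulfonylurea receptors, sodium-potassium pumps and potassium-chloride cotransporters held no gene at an unadjusted limma p under 0.05.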

How the data were processed

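RNA from 8 libraries, 4 control and 4 knockdown, was made into stranded libraries (total RNA, per the labels' protocols). The authors deposited a gene and a transcript table in FPKM, per the file headers. The submitters' processing notes list HISAT2, StringTie, cutadapt and FastQC with no versions. A genome build or annotation is not given in the sources used here. Identifier version and coordinates of 64 of the 72 genes, and coordinates of 114 of the 121 transcripts, match GENCODE M21, so positions are given on GRCm38. The higher group mean of a gene was never under 0.50 FPKM, as the values show. The gene value is not the sum of its listed transcripts: over the members the ratio ran from 0.302 to 1.97 with a median of 0.96. Low values showed no common step (at most 26.1% whole within 0.1 of a step), so depth is unknown.

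Values were taken to log2(FPKM + 1), and features with a mean of at least 0.5 FPKM were tested with limma 3.58.1 in R 4.3.3 (two-sided, no block, empirical Bayes with a trend and robust), with Benjamini-Hochberg adjustment over all genes, transcripts or ratios. The filter kept all 72 genes. Summed FPKM per library ran from 214316 to 224323 and log2 correlations between libraries from 0.971 to 0.99. Genes given with group differences were, in each subfamily, the highest and the one with the smallest p, those without overlap, the largest difference either way, and the most and least variable among controls with a mean of at least 1 FPKM; transcripts were, of those averaging 1 FPKM or more, the 8 with the smallest p and the 5 with the smallest ratio p, and those of genes without overlap. Kcng4, Kcnj2 and Kcnn1 were added after their values were seen, and other members are given by level only. The members and lists were chosen with earlier results of these data known. Alternatives covered the pseudocount, filter, rescaling, quantile normalization, library weights, plain empirical Bayes, a replicate block, summed transcripts, a GC content and length trend, marker covariates and each library left out. The fits were also run on simulated data with independent noise for each gene and library. Such data lack the marker shifts that genes share in these libraries, so that run cannot show how the fits behave under them. A search for the pore signature in protein sequences was planned and is not analysed here. Some genes that the rule takes are in the counts but are not reported by name here.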

Additional observations from a re-analysis of the deposited data

Results flagged for a closer look

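In 6 of 144 groups (72 genes in 2 groups of 4 libraries) 1 library lay apart from the other 3 by Dixon's criterion, and chance gives about 1 in 20. Kcnj4 read 62.3 FPKM in knockdown replicate 4, against 50.5 to 52.5 FPKM in knockdown replicates 1 to 3. Kcnh5 read 3.36 FPKM in control replicate 1, against 1.98 to 2.20 FPKM in the other controls. Kcng2 read 0.988 FPKM in control replicate 1, against 1.18 to 1.21 FPKM. Kcnj12 read 4.25 FPKM in control replicate 2, against 3.59 to 3.65 FPKM. Kcnk13 read 3.27 FPKM in control replicate 3, against 2.57 to 2.67 FPKM. Kcnj14 read 0.498 FPKM in control replicate 4, against 0.558 to 0.568 FPKM.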

How the results depend on the processing

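No potassium channel gene passed the adjusted threshold in any of 21 alternatives, and the number of all genes past it ran from 0 to 2 with 1 library left out. Members higher at an unadjusted limma p under 0.05 numbered 1 instead of 6 with the striatal covariate, and 3 to 7 with 1 library left out. Shares of all genes, transcripts or ratios at that p are not given for the alternatives in this paragraph, nor are slope shares of all genes. The changes in member counts, here and below, are therefore not results about the members. Members lower numbered 5 instead of 3 with median-of-ratios rescaling, quantile normalization or library weights, 6 with summed transcripts or the myelin covariate, and 2 to 8 with 1 library left out (8 without knockdown replicate 1). With 1 library left out, member transcripts higher numbered 3 to 7 and lower 4 to 13 (13 without knockdown replicate 1). Past the adjusted threshold there were 0 to 1 member transcripts and 9 to 22 of all transcripts. Member ratios higher and lower numbered 1 to 3 each, and all ratios past the threshold 9 to 22. Members past it in the striatal slope numbered 1 to 3. The labels used here do not say whether the replicate numbers pair the samples. Correlations of same-numbered deviations were -0.18, -0.07, 0.20 and -0.02, and 2 of 8 libraries correlated best with their own number. These values show no clear pairing but cannot exclude one. With a replicate block, members lower numbered 6, ratios 1 higher and 1 lower, and all ratios past the threshold 2.

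Of 33 named genes, 23 kept their direction in all alternatives run. None of the other 10 had an adjusted p under the threshold. With the striatal covariate, the log2 difference turned for Kcna5 (0.18), Kcnn2 (-0.0446), Kcnn3 (0.15), Kcns1 (-0.0141), Kcns2 (0.00181) and Kcnt1 (0.00858). After removal of a trend with GC content and length it turned for Kcnma1 (0.0985), Kcns1 (-0.0867) and Kcnu1 (0.0443). It also turned for Kcnma1 with library weights (0.032), the myelin covariate (0.00587) and summed transcripts (0.00976), for Kcns1 with rescaling (-0.00341), the myelin covariate (-0.0144) and quantile normalization (-0.00327), and for Kcnu1 with library weights (0.0236) and the myelin covariate (0.0067). With 1 library left out, the difference ran from -0.102 to 0.0209 for Kcnab2, -0.128 to 0.0275 for Kcnh1, -0.0464 to 0.0515 for Kcnma1, -0.0429 to 0.0814 for Kcns1 and -0.0373 to 0.0349 for Kcnu1. The cause was not tested. Unknown depth limits what can be said of genes near 1 FPKM, such as Kcnk10 and Kcnd3.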
